A study of Mus musculus with 4 samples.

Results

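The lysosomal cathepsins studied here are 9 proteases encoded by Ctsa, Ctsb, Ctsc, Ctsd, Ctsh, Ctsk, Ctsl, Ctss and Ctsz. They were taken by gene symbol from the 55357 genes of the deposited tables, of which 33943 had at least 1 UMI (unique molecular identifier, the tag that marks each captured RNA molecule) in the cells kept, and all 9 were found and detected. RNA of the ascending aorta was read from the 3′ end in droplets, cell by cell, in wild-type male mice. Every group carried the same aortic dissection model: from 3 weeks of age the mice drank β-aminopropionitrile (BAPN), an inhibitor of lysyl oxidase, whose cross-links strengthen elastin and collagen, at 1 g/kg per day for 4 weeks. The AD group (2 libraries) received BAPN alone. The AD_ABR group (2 libraries) also received paquinimod, an oral compound that binds S100A9, at 10 mg/kg per day into the stomach. Mice without BAPN were not analysed here, so every level below is a level in the diseased vessel. The labels do not say whether the replicates came from separate animals or pools, and p-values therefore measure only the spread between these libraries, which may be technical.

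Cathepsins are made as inactive precursors, tagged with mannose-6-phosphate in the Golgi, carried to the lysosome and activated there at low pH. Most are cysteine proteases, whereas cathepsin D is an aspartic and cathepsin A a serine protease. In the vessel wall, cathepsins K, L and S are known for cleaving elastin and collagen once secreted, and cystatin C, encoded by Cst3, is their main inhibitor outside the cell.

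The libraries held 76142840 and 99572011 UMIs in AD and 93575612 and 98946431 in AD_ABR. After quality filters 37259 cells remained, from 8451 to 9872 per library. The kept cells were shallower in AD, with median UMI counts of 5268 and 7185, than in AD_ABR, with 9452 and 8208. A sequence related to ribosomal RNA, Rn18s-rs5, took 5.34 and 3.23% of the UMIs in AD and 1.83 and 1.37% in AD_ABR. Pairs of libraries shared from 11 to 28 cell barcodes. Summed counts of the 2 replicates differed beyond sampling noise in both groups, with a chi-square per degree of freedom of 140 in AD and 64.2 in AD_ABR.

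Cells were clustered without the cathepsins and without the other lysosomal genes named below, and clusters were named from fixed marker genes. Of the 31 clusters, those of smooth muscle-like, fibroblast-like, macrophage-like, dendritic-like, endothelial-like and Schwann-like cells formed 6 classes with at least 50 cells in every library. The unnamed clusters 6, 12 and 13, led by Pex5l, Rgs5 and Col8a1, also had enough cells. Levels are given as CPM, the UMIs of a gene per 1000000 UMIs summed over the cells of a class in 1 library. The 9 macrophage markers summed to between 14585 and 21077 CPM in macrophage-like cells and to between 67.7 and 76.6 CPM in smooth muscle-like cells. Cluster 10, led by Arg1, Cxcl3 and Pf4, expressed all 9 macrophage markers, at a mean log2 fold of 2.86 over the other cells. It stayed unnamed because 1 of its 10 leading genes, Pf4, stands in the platelet list and 0 in the macrophage list, and a call of Ctsd given below turns on this. With 749 and 436 AD cells but 22 and 28 AD_ABR cells it could not be tested. The neutrophil-like class held 1635 and 232 AD cells but 21 and 10 AD_ABR cells.

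Each cathepsin had its own distribution over the vessel's cells, from Ctss, whose highest levels among the 9 tested classes were those of macrophage-like and dendritic-like cells, to Ctsa, which lay within a narrow range in the other 7 classes. These levels describe the classes and carry no test. Gene positions are those of GENCODE M21 on GRCm38.

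**Figure D1:**
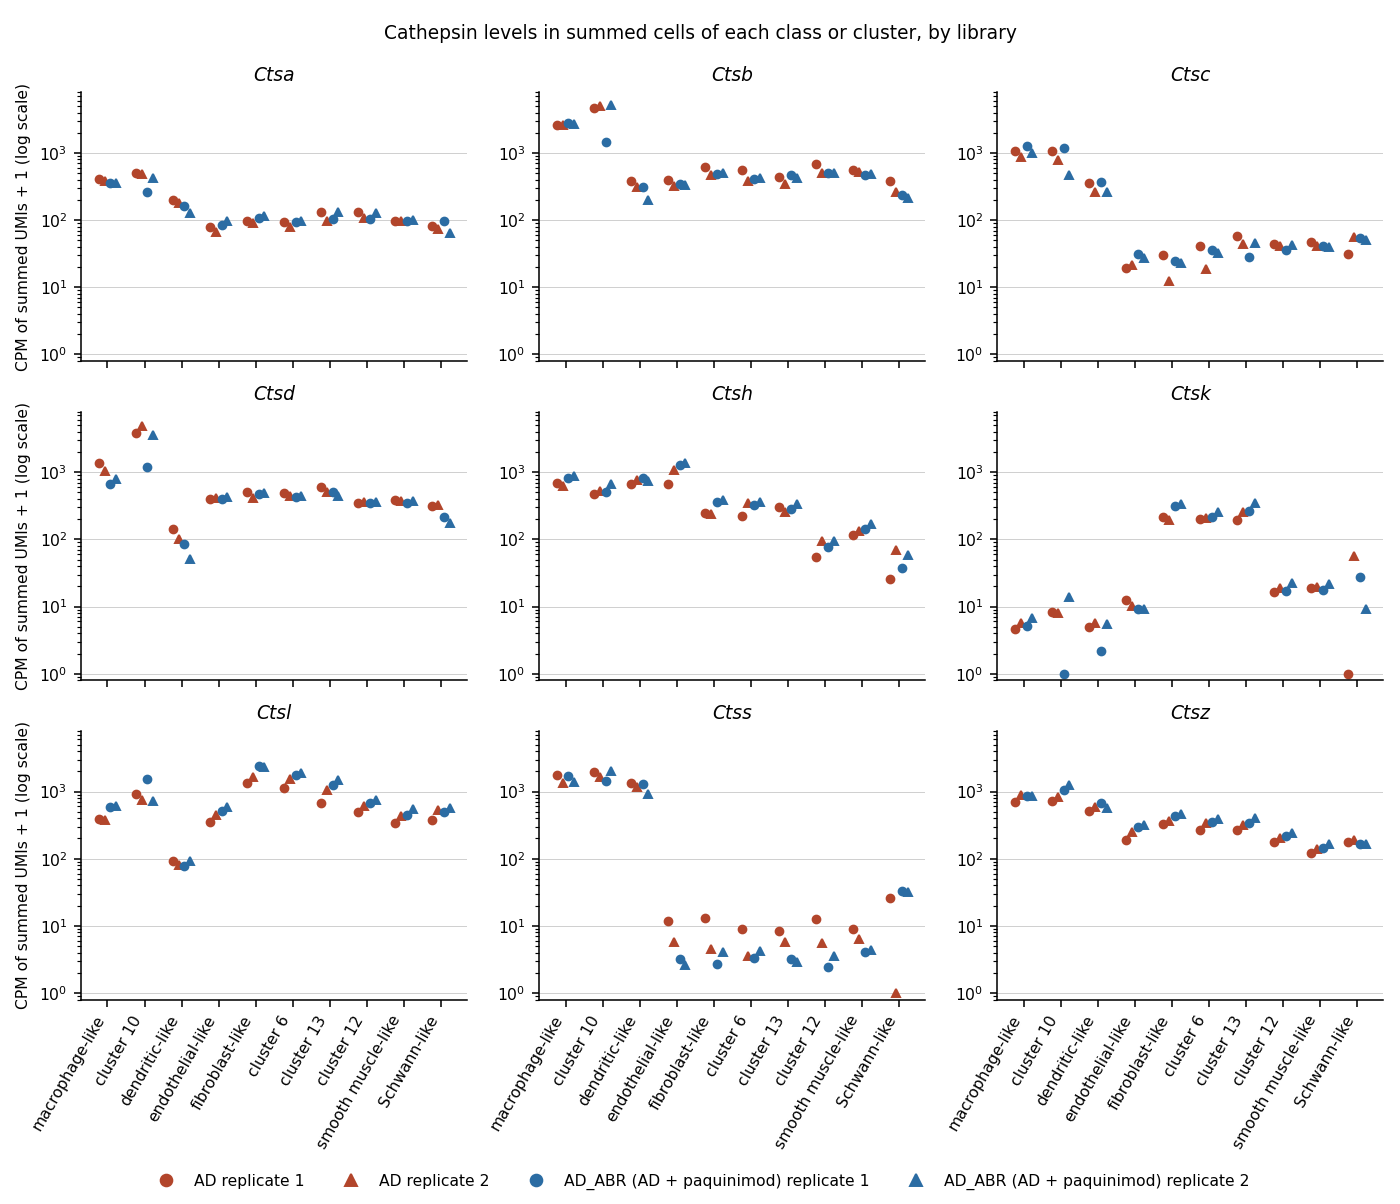
CPM plus 1 (log scale) of each cathepsin in the summed cells of each class or unnamed cluster, 1 point per library, AD in red and AD_ABR in blue. Ctss lies between 930 and 1780 CPM in macrophage-like and dendritic-like cells and under 32 CPM in the classes outside the myeloid cells. Ctsk lies between 196 and 339 CPM in fibroblast-like cells and between 3.70 and 5.80 CPM in macrophage-like cells. Smooth muscle-like cells, at 16.5 to 21.0 CPM of Ctsk, and endothelial-like cells, at 8.20 to 11.3 CPM, are low for both genes.

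Ctss (chr3:95526786-95556403, plus strand) encodes cathepsin S, which remains active at neutral pH and cleaves the invariant chain of MHC class II in antigen-presenting cells. In macrophage-like cells it stood at 1780 and 1363 CPM in AD and 1719 and 1398 CPM in AD_ABR. In dendritic-like cells it stood at 1361 and 1154 CPM in AD and 1304 and 930 CPM in AD_ABR. The ranges of these 2 classes did not overlap, and both lay far above the Schwann-like cells, the next in order, at 0 to 31.9 CPM. Cluster 10 was as rich as the macrophage-like cells, with 1983, 1673, 1449 and 2024 CPM in the same order of libraries.

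Ctsc (chr7:88278085-88310888, plus strand) encodes cathepsin C, a dipeptidyl peptidase that activates the serine proteases of leukocyte granules. Its order was the same at the top: 868 to 1255 CPM in macrophage-like, 263 to 364 CPM in dendritic-like and at most 58.0 CPM in each of the other 7 classes. Ctsk and Ctss are neighbours, 17423 bases apart on the same strand of chromosome 3, and differed in where they were read. Ctsk (chr3:95499256-95509362) encodes cathepsin K, a collagen- and elastin-cleaving enzyme best known from osteoclasts. It was at 196 to 339 CPM in fibroblast-like cells, 192 to 343 CPM in cluster 13 and 198 to 259 CPM in cluster 6, with overlapping ranges, and at 3.70 to 5.80 CPM in macrophage-like cells.

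Ctsl (chr13:64359337-64370890, minus strand) encodes cathepsin L, an endopeptidase of broad specificity. It was highest in fibroblast-like cells, at 1324 to 2389 CPM, followed with overlapping ranges by clusters 6 and 13. Dendritic-like cells, at 77.2 to 91.0 CPM, were the lowest class and lay below every other class. Ctsh (chr9:90054152-90076089, plus strand) encodes cathepsin H, an aminopeptidase. Endothelial-like cells led it, at 659 to 1375 CPM, and their range overlapped those of macrophage-like (622 to 874 CPM) and dendritic-like cells (675 to 819 CPM). Smooth muscle-like cells had 117 to 169 CPM.

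Ctsb and Ctsd were read in every class, and macrophage-like cells were at the top of the order for both. Ctsb (chr14:63122462-63145923, plus strand) encodes cathepsin B, an endopeptidase and carboxypeptidase. It stood at 2587 to 2770 CPM in macrophage-like cells, above all other classes, of which the next, cluster 12, had 494 to 674 CPM. Ctsd (chr7:142375911-142388038, minus strand) encodes cathepsin D, the main aspartic protease of the lysosome. It had 667 to 1359 CPM in macrophage-like cells and 50.2 to 142 CPM in dendritic-like cells, which overlapped with none of the other 8 classes. The dendritic-like cells thus had a high level of Ctss beside low levels of Ctsd and Ctsl.

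The remaining members are exopeptidases. Ctsa (chr2:164832873-164841032, plus strand) encodes cathepsin A, a carboxypeptidase that also protects β-galactosidase and neuraminidase from degradation. It had 351 to 402 CPM in macrophage-like cells, 125 to 201 CPM in dendritic-like cells and between 64.0 and 133 CPM in the other 7 classes. Ctsz (chr2:174427493-174439039, minus strand) encodes cathepsin Z, a carboxypeptidase. It fell in steps that did not overlap from macrophage-like (691 to 887 CPM) to dendritic-like (506 to 663 CPM) and fibroblast-like cells (325 to 459 CPM), and was lowest in smooth muscle-like cells (121 to 166 CPM).

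Some members lie over other annotated genes. Ctsd overlaps Gm49369 and Ctsl overlaps the pseudogene Gm49230 on the same strand, and both had 0 UMIs in every library. Hmgb1-ps5, a pseudogene inside Ctss, had 75 and 57 UMIs in AD and 17 and 31 in AD_ABR.

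A regulatory sequence shared by lysosomal genes is the E-box CACGTG, the core of the element bound by TFEB and its relatives. RefSeq promoters (GRCm38.p6, from 250 bases before to 50 after each start) were on hand for 7 of the 9 members, all but Ctsb and Ctsh, and both strands were searched. CACGTG occurred in 3 of the 7, against 7.15% of the 32851 promoters of the table. The 7 members have 8 promoters, as Ctsa has 2, so members and promoters are not quite like counts. The longer form TCACGTG, which contains it, occurred in 2 of the 7, against 3.77% of all promoters. The 3 stretches are shown because they hold the motif, in capitals, 5′ to 3′ on the gene's strand.
Ctsd, chr7:142387902-142387943, minus strand: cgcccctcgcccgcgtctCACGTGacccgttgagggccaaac
Ctsa, chr2:164833743-164833772, plus strand: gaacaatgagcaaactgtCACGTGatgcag
Ctsl, chr13:64370733-64370770, minus strand: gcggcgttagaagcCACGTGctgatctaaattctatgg
A match is a description of these letters and was not tested as a binding site. The Ctsa stretch comes from the downstream of its 2 start sites. A core of the PU.1 motif, GAGGAAGT, occurred in the Ctss and Ctsc promoters, 2 of the 7, against 3.20% of all promoters. Macrophage-like and dendritic-like cells were at the top of the order for both, but also for Ctsa and Ctsz, whose windows held 0 matches.

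In fibroblast-like cells 3 of the 9 cathepsins rose with paquinimod. Ctsk, Ctsh and Ctsl were each about 1.7-fold higher in AD_ABR, and 0 of the 9 cathepsins fell past the test. Of 15106 genes tested in these cells 2.1% rose and 1.89% fell (317 and 285 genes, or 191 and 399 without TMM scaling). Ctsk stood at 212 and 196 CPM in AD and at 314 and 339 CPM in AD_ABR. Both AD_ABR libraries were above both AD libraries (log2 fold change 0.76 ± 0.12 SE, 1.70-fold, adjusted p = 0.0248). Ctsh stood at 248 and 234 CPM in AD and at 357 and 391 CPM in AD_ABR. The groups did not overlap (0.72 ± 0.13, 1.64-fold, adjusted p = 0.0294). Ctsl stood at 1324 and 1643 CPM in AD and at 2389 and 2300 CPM in AD_ABR, again without overlap (0.74 ± 0.16, 1.67-fold, adjusted p = 0.046). Ctsz (325 and 364 against 439 and 459 CPM, 0.46 ± 0.13, adjusted p = 0.0836) and Ctsa (95.4 and 88.3 against 108 and 113 CPM, 0.35 ± 0.11, adjusted p = 0.101) also did not overlap between groups but missed the threshold.

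The other members of fibroblast-like cells overlapped between groups or were near background. Ctsb stood at 611 and 468 CPM in AD and 490 and 509 CPM in AD_ABR (log2 fold change −0.02 ± 0.16, adjusted p = 0.941). Ctsd stood at 505 and 412 CPM against 479 and 496 CPM (0.17 ± 0.14, adjusted p = 0.48). For Ctsc the values were 28.9 and 11.3 against 23.6 and 22.0 CPM (0.31 ± 0.46, adjusted p = 0.722). Ctss had 12.002 and 3.47 against 1.73 and 3.01 CPM (−1.52 ± 0.67, adjusted p = 0.251), with AD replicate 1 far above the other libraries. With 5 of 9 members wholly higher and 1, Ctss, wholly lower, the members' median log2 fold change was 0.35, beside 0.01 over all genes tested. Of all genes tested in these cells 23.2% were wholly higher and 35.3% wholly lower.

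The rise of Ctsk and Ctsh was also present in the share of fibroblast-like cells with a UMI at equal depth. For this, each cell was thinned to 1000 UMIs, which removes the difference in depth. Ctsk was found in 18.1 and 17.5% of AD cells and 27.1 and 27.4% of AD_ABR cells, and without thinning 71.9 and 65.2% against 78.4 and 79.3%. Ctsh was found in 20.8 and 18.8% of AD cells and 28.0 and 30.1% of AD_ABR cells after thinning. In macrophage-like cells, where Ctsk was at 3.70 to 5.80 CPM, the thinned Ctsk share was from 0.218 to 1.01%. Cells under 1000 UMIs were left out, from 15 to 62 per library in fibroblast-like cells.

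The makeup of the class moved with the treatment. Cluster 3, led by Lrrn4cl, Tmem100 and Pi16, held 49.7 and 53.1% of fibroblast-like cells in AD and 18.7 and 28.7% in AD_ABR. Cluster 1, led by Fmod, Inmt and Cpz, held 17.8 and 20.8% in AD and 52.9 and 45.7% in AD_ABR, whereas cluster 4 held between 25.6 and 32.5% in each library. Cluster 1 was the richest of the 3 in the cathepsins concerned: in AD it had 330 and 346 CPM of Ctsk against 181 and 162 CPM in cluster 3, and 399 and 448 CPM of Ctsh against 242 and 174 CPM. Ctsl had 1857 and 2466 CPM in cluster 1 against 1212 and 1360 CPM in cluster 3. Within single clusters the differences were smaller, and 0 members passed the edgeR test in cluster 1, 3 or 4 alone. The log2 fold change of Ctsk was 0.45, 0.50 and 0.31 in clusters 1, 3 and 4 (adjusted p = 0.235, 0.246 and 0.292). That of Ctsl was 0.47, 0.38 and 0.60 (adjusted p = 0.269, 0.355 and 0.164). For Ctsh it was 0.48 in clusters 1 and 4 (adjusted p = 0.229 and 0.177) and −0.16 in cluster 3 (adjusted p = 0.809), where the libraries had 242 and 174 CPM in AD and 151 and 219 CPM in AD_ABR. The part of the makeup in the rise of the whole class was not tested.

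**Figure D2:**
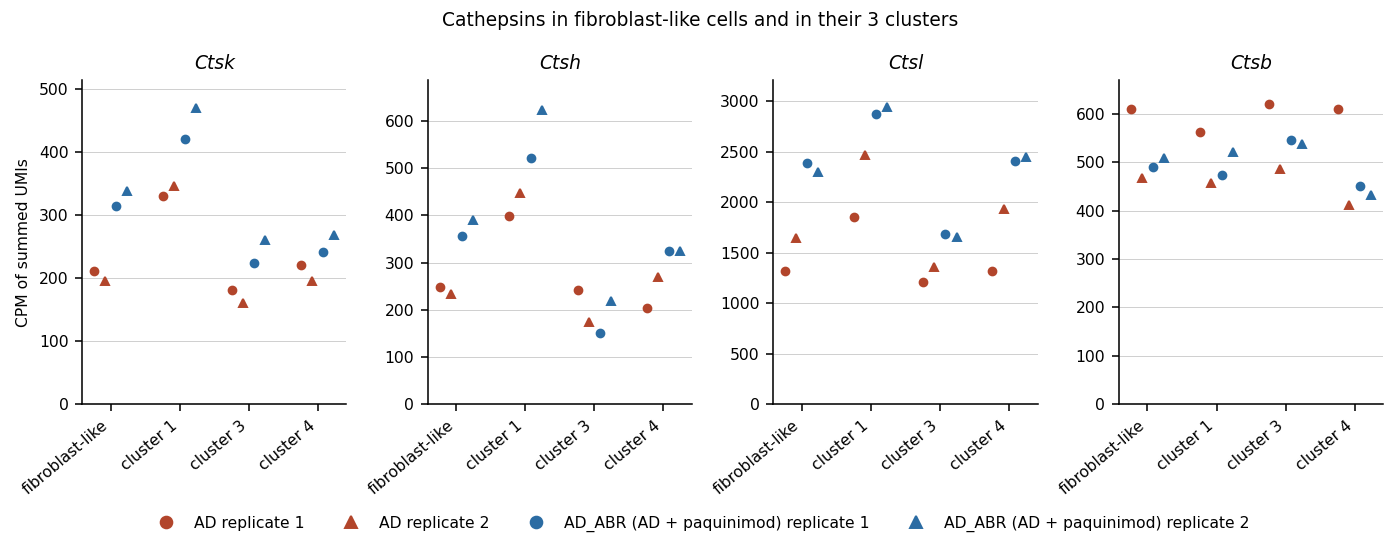
CPM of Ctsk, Ctsh, Ctsl and Ctsb in all fibroblast-like cells and in each of their 3 clusters, 1 point per library, linear axes from 0. Cluster 1 has the highest Ctsk, Ctsh and Ctsl in every library, and Ctsb does not separate the groups.

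The calls in fibroblast-like cells also rested on AD_ABR replicate 2: without it Ctsk (adjusted p = 0.0625), Ctsh (0.108) and Ctsl (0.121) missed the threshold at log2 fold changes of 0.71, 0.66 and 0.78. Without AD_ABR replicate 1 Ctsl missed it as well (0.73, adjusted p = 0.153). Markers of macrophages in these cells summed to 171 and 98.8 CPM in AD and 106 and 106 CPM in AD_ABR, with 0 of the 9 at 0 UMIs, and 0 of the 8 tested passed by edgeR. Neutrophil markers summed to 62.3 and 5.18 CPM in AD and 0.5003 and 0.666 CPM in AD_ABR. Dendritic markers summed to 48.6 and 55.6 CPM in AD and 30.4 and 28.6 CPM in AD_ABR, where 3 of the 4 tested fell. Smooth muscle markers summed to 309 and 523 CPM in AD and 830 and 624 CPM in AD_ABR, and 0 of 6 passed. The part of these markers' cells in the values was not tested.

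Among genes that handle cathepsins in this class, 4 passed upward and 1 downward. The cystatin gene Cst3 rose from 6306 and 7242 CPM in AD to 14586 and 12806 CPM in AD_ABR (log2 fold change 1.10 ± 0.17, adjusted p = 0.021), but within clusters 1, 3 and 4 alone its change was 0.38, 0.22 and 0.71 (adjusted p = 0.372, 0.551 and 0.142). It was 1 of 5 inhibitor genes tested to rise, and Ctla2a, a mouse gene related to the cathepsin propeptide, was the 1 that fell (2.76 and 4.48 against 1.14 and 0.951 CPM, −1.76 ± 0.34, adjusted p = 0.0374). Of 7 other lysosomal peptidases tested, Ctsf, the gene of cathepsin F, rose by 0.70 ± 0.13 (51.7 and 61.3 against 79.9 and 93.9 CPM, adjusted p = 0.037) and Dpp7, a dipeptidyl peptidase, by 0.74 ± 0.12 (31.3 and 35.7 against 50.9 and 55.4 CPM, adjusted p = 0.0245). Of 11 genes of mannose-6-phosphate tagging and sorting, Gnptg, a subunit of the tagging enzyme, rose by 0.63 ± 0.11 (45.5 and 44.3 against 68.4 and 62.6 CPM, adjusted p = 0.0275) and the other 10 did not pass. The median over these 11 was −0.02. In each of clusters 1, 3 and 4 alone these 5 genes missed the threshold. Ctla2a also missed it without AD replicate 2 (−1.31, adjusted p = 0.0808) or AD_ABR replicate 2 (−1.61, 0.0544), and Ctsf without AD replicate 1 (0.57, 0.0725) or AD_ABR replicate 2 (0.59, 0.094). Cst3 (1.01, 0.055) and Gnptg (0.57, 0.0996) missed it without AD_ABR replicate 1.

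Of 23 lysosomal hydrolases and activators tested in fibroblast-like cells, 4 rose and 0 fell by edgeR, where 11 had an unadjusted p under 0.05. Acp5, an acid phosphatase known from osteoclasts, went from 15.7 and 18.7 to 32.1 and 39.5 CPM (1.13 ± 0.15, adjusted p = 0.0178). Hexa, a subunit of β-hexosaminidase, went from 184 and 189 to 256 and 285 CPM (0.62 ± 0.12, adjusted p = 0.0404), and Gm2a, its activator, from 111 and 102 to 146 and 143 CPM (0.53 ± 0.11, adjusted p = 0.0442). The other was Fuca1, the gene of α-fucosidase (0.57 ± 0.13, adjusted p = 0.0484), named because the count is small. Within clusters 1, 3 and 4 alone Gm2a changed by 0.10, 0.18 and 0.21, Hexa by 0.31, 0.47 and 0.33 and Fuca1 by 0.33, 0.34 and 0.39, all short of the threshold. Acp5 changed by 0.44 and 0.50 in clusters 1 and 4, short of it, and passed in cluster 3. Without TMM factors Hexa (adjusted p = 0.0531), Gm2a (0.0663) and Fuca1 (0.0674) missed the threshold, as they did without AD_ABR replicate 1 (0.0646, 0.168 and 0.15) or AD_ABR replicate 2 (0.189, 0.137 and 0.181). Without AD replicate 1 Hexa (0.0567) and Fuca1 (0.0649) missed it. The median over the 23 was 0.22, beside 0.01 for all genes tested. Of 17 membrane and proton pump genes Gpnmb rose (44.1 and 38.0 against 63.5 and 81.2 CPM, 0.91 ± 0.15, adjusted p = 0.0248), and it missed the threshold without AD replicate 1 (0.06) and in clusters 1, 3 and 4 alone (0.39, 0.67 and 0.28). Among 10 regulators, the TFEB family and nutrient sensors, 0 passed by edgeR in either direction, and 4 had an unadjusted p under 0.05.

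In the smooth muscle-like class, the contractile part of the wall, Ctsl and Ctsh were also higher with paquinimod, and Ctss was lower at a very low level. The difference of these effects from those in fibroblast-like cells was not tested. Of 14851 genes tested in this class 7.99% rose and 9.36% fell (1186 and 1390 genes, or 755 and 1897 without TMM scaling). Ctsl stood at 340 and 433 CPM in AD and at 453 and 543 CPM in AD_ABR, with AD replicate 2 close to AD_ABR replicate 1 (log2 fold change 0.44 ± 0.14, 1.36-fold, adjusted p = 0.0403). Ctsh stood at 117 and 134 CPM in AD and at 142 and 169 CPM in AD_ABR (0.38 ± 0.13, 1.30-fold, adjusted p = 0.0412). Neither group pair overlapped, but the gap between the nearest libraries was small beside the spread within a group. Without AD replicate 1 the values were 0.25 for Ctsl (adjusted p = 0.263) and 0.26 for Ctsh (adjusted p = 0.25), and without AD_ABR replicate 2 they were 0.30 (0.377) and 0.24 (0.445).

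Ctss in smooth muscle-like cells had 7.99 and 5.42 CPM in AD and 3.05 and 3.41 CPM in AD_ABR, from 60, 86, 118 and 95 UMIs (log2 fold change −0.93 ± 0.23, adjusted p = 0.00805). A UMI of Ctss was found in 5.79 and 3.83% of the AD cells and 2.68 and 3.19% of the AD_ABR cells. Fibroblast-like cells (8.96, 2.72, 1.60 and 2.47%) and endothelial-like cells (8.04, 3.35, 2.10 and 1.45%) had similar low shares, with median depths between 5652.5 and 10553.5 UMIs in the 3 classes, and macrophage-like cells had 90.5 to 97.8%. At shares this low and this alike, expression in smooth muscle-like cells and RNA from other cells cannot be told apart. After thinning to 1000 UMIs the AD values became 0.561 and 0.495% and the AD_ABR values 0.571 and 0.389%, from 892 to 3505 cells, and showed no order of the groups.

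Some myeloid genes were lower along with Ctss, whereas the summed macrophage markers overlapped between groups. Laptm5, a lysosomal membrane gene of leukocytes, fell in smooth muscle-like cells from 9.45 and 4.48 to 1.83 and 1.72 CPM (−1.80 ± 0.30, adjusted p = 0.000647), at 0.754, 0.391, 0.177 and 0.190% of its macrophage-like level. Ctss stood at 0.449, 0.398, 0.177 and 0.244% of its own. The 9 macrophage markers summed to 72.8 and 67.7 CPM in AD and 76.6 and 72.7 CPM in AD_ABR with none at 0. Of the 8 tested 0 passed by edgeR. The 8 dendritic markers summed to 11.1 and 8.07 CPM in AD and 5.81 and 5.88 CPM in AD_ABR, and 2 of the 5 tested fell by edgeR. Among them Xcr1 and Clec9a were at 0 in AD replicate 2 and AD_ABR replicate 2 and Clec9a in AD replicate 1. The 6 neutrophil markers summed to 46.3 and 4.16 CPM in AD and 2.14 and 1.94 CPM in AD_ABR. In smooth muscle-like cells Ctss had 0.923 and 0.723 UMIs per UMI of C1qa in AD, against 0.334 and 0.318 in AD_ABR. In macrophage-like cells the ratio was 0.493, 0.283, 0.270 and 0.216, and in cluster 10 it was 1.31, 1.13, 1.07 and 1.08. In fibroblast-like cells it was 0.790, 0.542, 0.286 and 0.304, and in dendritic-like cells 28.1, 28.0, 4.59 and 7.97. The part of RNA from other cells in the Ctss value was not tested. Without AD replicate 1 (−0.70, adjusted p = 0.0662) or AD_ABR replicate 1 (−0.84, 0.0548) the call was lost.

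The 6 other members in smooth muscle-like cells did not pass. Over the 9 members 4 were wholly higher and 3 wholly lower in CPM, against 23.6 and 38.4% of all genes tested. Ctsz had 121 and 140.5 CPM in AD and 141.4 and 166 CPM in AD_ABR (0.31 ± 0.13, adjusted p = 0.0914). Ctsd had 386 and 373 against 352 and 373 CPM and Ctsb 553 and 525 against 469 and 484 CPM, with fitted log2 fold changes of 0.01 and −0.10 after TMM scaling. Ctsk, which has its main site in fibroblasts, was at 16.5 to 21.0 CPM in the 4 libraries. The smooth muscle-like class changed in makeup too: cluster 8 held 26.3 and 32.0% of its cells in AD and 10.9 and 9.85% in AD_ABR. Cluster 0 held 32.9 and 34.9% against 44.9 and 64.6%, and in none of clusters 0, 2 and 8 alone did a member pass the edgeR test. There the log2 fold changes were 0.38, 0.37 and 0.47 for Ctsl, and −0.50, −1.25 and 0.26 for Ctss. Fibroblast markers in the class summed to 1784 and 1638 CPM in AD and 1260 and 1383 CPM in AD_ABR, where 3 of the 6 fell, and their part was not tested.

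Among the partner genes in smooth muscle-like cells, Cst3 rose from 2215 and 2210 to 2680 and 3159 CPM (0.48 ± 0.13, adjusted p = 0.0184), 1 of 4 inhibitor genes tested. Ctsf rose from 40.7 and 48.0 to 53.4 and 60.3 CPM (0.42 ± 0.12, adjusted p = 0.0245), 1 of 8 other peptidases. The genes that fell were few, against 9.36% of all genes tested that fell in this class. In the tagging and sorting list 1 of 11 fell and among the regulators 1 of 11: Gnptab, the catalytic subunit of the tagging enzyme, fell from 14.9 and 12.5 to 8.99 and 9.79 CPM (−0.45 ± 0.15, adjusted p = 0.0449), and Tfe3, a relative of TFEB, from 25.4 and 25.2 to 18.2 and 14.0 CPM (−0.57 ± 0.14, adjusted p = 0.0073). Gla, the gene of α-galactosidase, was the 1 of 23 hydrolases to fall (8.92 and 6.87 against 4.91 and 4.84 CPM, −0.59 ± 0.19, adjusted p = 0.0405). Beside Laptm5, Tcirg1, a subunit of the proton pump, fell from 14.0 and 11.4 to 8.66 and 8.18 CPM (−0.49 ± 0.16, adjusted p = 0.0353), so 2 of 17 membrane and pump genes fell. With DESeq2 Gnptab (adjusted p = 0.189), Tcirg1 (0.156) and Gla (0.164) missed the threshold, and each missed it without AD replicate 1 or either AD_ABR replicate (0.115 to 0.269). In cluster 8 alone Tcirg1 had a value of 0.62 (adjusted p = 0.364). Laptm5 missed the threshold in clusters 0 and 8 alone (−1.06 and −0.91, adjusted p = 0.115 and 0.23). Without AD_ABR replicate 2 Cst3 (0.35, adjusted p = 0.383), Ctsf (0.33, 0.255) and Tfe3 (−0.40, 0.197) missed the threshold, and without AD replicate 1 Ctsf did (0.29, 0.19).

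**Figure D3:**
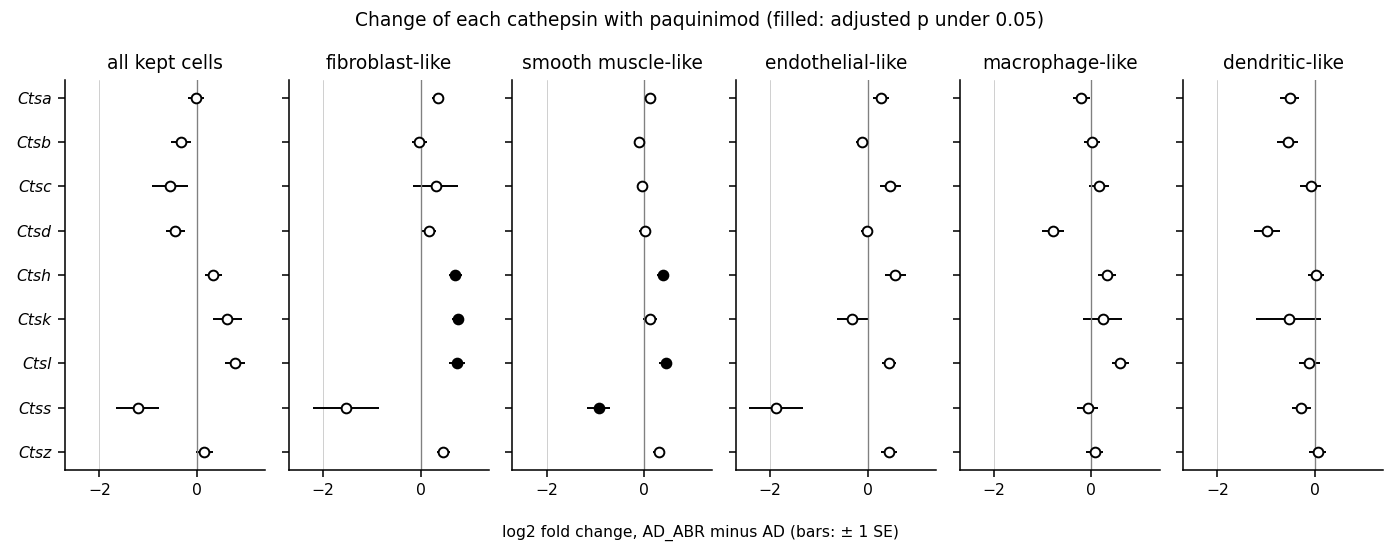
Log2 fold change of each cathepsin, AD_ABR minus AD, with bars of 1 SE, over all kept cells and in 5 classes; filled points have an edgeR adjusted p under 0.05. Ctsh and Ctsl are filled in fibroblast-like and smooth muscle-like cells, Ctsk in fibroblast-like cells, and Ctss in smooth muscle-like cells.

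In macrophage-like cells 0 of 9 cathepsins passed by edgeR or DESeq2, where 0.16% of 11226 genes rose and 0.16% fell, and 2 members, Ctsd and Ctsl, had an unadjusted p under 0.05 by each tool. This count depends on the unnamed cluster 10. With it added, 471 of 12080 genes tested rose and 519 fell, and Ctsd passed (−1.86, adjusted p = 0.00138). Ctsd was lower in both AD_ABR libraries, at 1359 and 1033 CPM in AD and 667 and 788 CPM in AD_ABR (log2 fold change −0.78 ± 0.22, 1.72-fold, adjusted p = 0.187). Ctsl was higher in both, at 387 and 370 CPM in AD and 580 and 610 CPM in AD_ABR (0.59 ± 0.17, 1.51-fold, adjusted p = 0.195). These 2 values went in opposite directions in the same cells. Ctsb stayed at 2638 and 2587 against 2770 and 2720 CPM (0.01 ± 0.16, adjusted p = 0.981). The groups did not overlap for 3 members that were higher and 2 that were lower in AD_ABR, against 27.4 and 20.2% of all genes tested. Ctss had a log2 fold change of −0.08 ± 0.22, Ctsc of 0.16 ± 0.21 and Ctsh of 0.32 ± 0.18.

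The class joins 2 clusters whose weights changed. Cluster 15, led by Cd163, Folr2 and Lyve1, made up 2.32 and 26.5% of the class in AD, against 39.3 and 42.4% in AD_ABR, and cluster 5, led by Ms4a7, Cd72 and Ccl12, held the rest. Ctsd in cluster 5 was at 1275 and 1006 CPM in AD and 652 and 871 CPM in AD_ABR (−0.61 ± 0.24 in cluster 5 alone, adjusted p = 0.372). In cluster 15 Ctsd was at 3242 CPM in AD replicate 1, from 24 cells, and at 1110, 693 and 663 CPM in the others.

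Cluster 10 had more Ctsd than cluster 5 in each of the 4 libraries, and more Ctsb in 3 of them. Ctsd was at 3874 and 4920 CPM in AD and 1196 and 3631 CPM in AD_ABR, the last 2 from 22 and 28 cells. Ctsb was at 4656 and 5044 CPM in AD and 1454 and 5187 CPM in AD_ABR, against 2287 to 2621 CPM in cluster 5. Where cluster 10 was added to the macrophage-like cells, a choice made after seeing the data, Ctsd was lower with paquinimod by −1.86 ± 0.17 (adjusted p = 0.00138), Ctsb by −0.48 ± 0.14 (adjusted p = 0.0767), and the value of Ctsl was 0.01 ± 0.15 (adjusted p = 0.968). The macrophage-like class by itself has 1035 and 521 AD cells and 422 and 934 AD_ABR cells. A Leiden resolution of 0.5 gave nearly the same value for Ctsd (−1.86, adjusted p = 0.00125), with 474 of 12097 genes higher and 514 lower. These counts are close to the 471 and 519 of 12080 genes with cluster 10 added. Both results may therefore rest on the same cells, and they are not separate support.

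**Figure D4:**
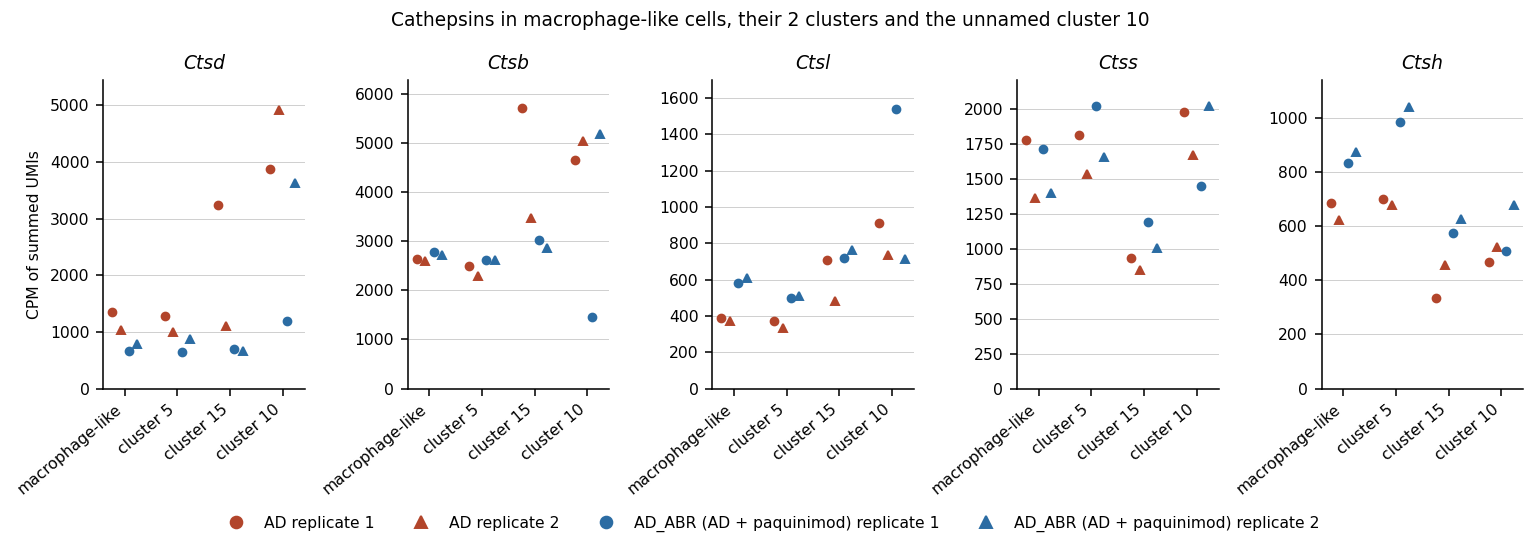
CPM of Ctsd, Ctsb, Ctsl, Ctss and Ctsh in macrophage-like cells, in their clusters 5 and 15, and in the unnamed cluster 10, 1 point per library, linear axes from 0. AD points of Ctsd lie above AD_ABR points in the macrophage-like cells, and cluster 10 reaches 4920 CPM.

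Acp5 was the 1 gene of the other lysosomal lists to pass in macrophage-like cells, among 23 hydrolases and activators. It rose from 29.8 and 33.0 CPM in AD to 91.8 and 110 CPM in AD_ABR (1.63 ± 0.18, adjusted p = 0.0329). The value turned to −0.08 (adjusted p = 0.922) when cells were clustered with all variable genes. With the replicate block (1.62, 0.0638), without doublet removal (1.62, 0.0889) and without AD_ABR replicate 1 (1.77, 0.254) or AD_ABR replicate 2 (1.49, 0.528) it kept its size and missed the threshold.

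Markers of other cells in the macrophage-like class differed between the groups, with 0 past the test by edgeR. Neutrophil markers summed to 118 and 62.9 CPM in AD and 38.9 and 24.8 CPM in AD_ABR, and fibroblast markers to 375 and 422 against 260 and 311 CPM. Dendritic markers summed to 45.7 and 99.0 CPM in AD and 138 and 135 CPM in AD_ABR, and smooth muscle markers to 178 and 493 against 644 and 525 CPM. Endothelial markers, at 22.2 to 26.2 CPM, were lower in AD_ABR. The part of these cells in the values of Acp5 and the cathepsins was not tested.

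The change of Ctsd differed between fibroblast-like and macrophage-like cells in the main model. In 1 model over the 6 named classes, with the library as a block, the effect of paquinimod on Ctsd in fibroblast-like cells exceeded that in macrophage-like cells by 0.92 ± 0.22 on the log2 scale (adjusted p = 0.0263). This was 1 of 9 members past the test in that contrast, in which 1.79% of 15009 genes passed. Without TMM factors (0.80, adjusted p = 0.0578) or the library block (0.92, adjusted p = 0.155) this Ctsd difference missed the threshold. The same difference was 0.77 ± 0.22 for smooth muscle-like cells (adjusted p = 0.0535) and 0.75 ± 0.22 for endothelial-like cells (adjusted p = 0.113). For Ctsl the fibroblast-like effect exceeded the macrophage-like by 0.15 ± 0.21 (adjusted p = 0.828). The Ctsd difference missed the threshold without AD_ABR replicate 1 (0.80, adjusted p = 0.557) or AD_ABR replicate 2 (1.05, adjusted p = 0.29).

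Dendritic-like cells had 0 of 9 members past the test by edgeR and DESeq2, where 0.339% of 9437 genes rose and 0.424% fell, and 3 members had an unadjusted p under 0.05 by edgeR. Those were Ctsd (142 and 102 against 85.4 and 50.2 CPM, −0.98 ± 0.27, adjusted p = 0.126), Ctsb (376 and 310 against 308 and 197 CPM, −0.56 ± 0.21, adjusted p = 0.275) and Ctsa (201 and 177 against 161 and 125 CPM, −0.52 ± 0.19, adjusted p = 0.266). For all 3 the groups did not overlap, AD_ABR being lower, as for 16.9% of all genes tested. Ctss, the most typical cathepsin of these cells, overlapped between groups (−0.28 ± 0.19, adjusted p = 0.583). The class had 606 and 562 AD cells but 95 and 160 AD_ABR cells, and neutrophil markers in its sums were 563 and 20.01 CPM in AD and 1.17 and 1.48 CPM in AD_ABR. In AD_ABR 5 of the 6, S100a8 and S100a9 among them, were at 0, and the part of this difference was not tested. Macrophage markers summed to 540 and 333 CPM in AD and 1089 and 630 CPM in AD_ABR, where 1 of 9 rose. Of 5 inhibitor genes tested, Cst7, the gene of cystatin F, an inhibitor of cathepsin C kept inside leukocytes, fell from 33.3 and 27.4 to 3.51 and 2.96 CPM (−3.33 ± 0.41, adjusted p = 0.00551, and 0.0625 without doublet removal). The AD_ABR values of Cst7 came from 3 and 4 UMIs.

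Endothelial-like cells, which have the highest Ctsh, also had 0 of 9 members past the test by either tool, where 1.52% of 10761 genes rose and 4.0% fell. By edgeR 5 members had an unadjusted p under 0.05. Ctsh stood at 659 and 1091 CPM in AD and 1286 and 1375 CPM in AD_ABR (0.56 ± 0.22, adjusted p = 0.183), with AD replicate 1 far below the others. Ctsl had 348 and 442 against 513 and 590 CPM (0.44 ± 0.15, adjusted p = 0.12) and Ctsz 187 and 251 against 292 and 321 CPM (0.44 ± 0.16, adjusted p = 0.14). Ctsc (0.46 ± 0.21) and Ctss (−1.88 ± 0.56, adjusted p = 0.07), at 1.64 to 10.7 CPM, were the others. In all 5 members were wholly higher and 2 wholly lower, against 29.6 and 23.9% of all genes tested, of which 5.52% were called. With 199, 478, 238 and 275 cells this class is thin, and a p above the threshold does not show that the levels were equal. Fibroblast markers in it summed to 1022 and 1271 CPM in AD and 648 and 825 CPM in AD_ABR, where 2 of 6 fell, and their part was not tested.

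Schwann-like cells and clusters 6, 12 and 13 had 0 members past the test by edgeR and DESeq2, with percentages of all genes called of 0.0999, 1.04, 1.85 and 0.00971. By edgeR, unadjusted p-values under 0.05 were those of Ctsd in Schwann-like cells (−0.74 ± 0.25), Ctsl in cluster 6 (0.46 ± 0.18), Ctsl and Ctss in cluster 12 (0.33 ± 0.15 and −1.90 ± 0.61), and Ctss in cluster 13 (−1.47 ± 0.62). The Ctss values rested on few UMIs: 9 and 6 in AD and 5 and 8 in AD_ABR in cluster 12, and 15 and 40 against 5 and 2 in cluster 13. By direction, the shares of all genes called were 0.395% higher and 0.643% lower in cluster 6, and 0.764% higher and 1.09% lower in cluster 12. The groups of Ctsl did not overlap in each of clusters 6, 12 and 13, with AD_ABR higher. In cluster 6 this held for 3 members, against 24.4% of all genes, and 1 member was wholly lower, against 23.9%. In cluster 12 it was 2 higher and 1 lower, against 28.1 and 19.8% of all genes, and in cluster 13 it was 3 higher and 2 lower, against 22.7 and 20.3%. In Schwann-like cells 3 members were wholly lower, against 17.7% of all genes, and 0 wholly higher, against 21.4%. In Schwann-like cells 7 of the 9 members had enough counts to be tested.

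Over all kept cells 0 of 9 members passed by edgeR, where 3.49% of 20196 genes were called, 1.03% higher and 2.46% lower. By DESeq2, which called 1634 genes higher and 2049 lower of the same 20196, Ctsl rose and Ctss fell. Ctsl stood at 678 and 852 CPM in AD and 1112 and 1337 CPM in AD_ABR (0.78 ± 0.21, adjusted p = 0.085 by edgeR and 0.00543 by DESeq2). Ctss stood at 383 and 159 CPM in AD and 84.4 and 131 CPM in AD_ABR (−1.22 ± 0.44, adjusted p = 0.138 by edgeR and 0.017 by DESeq2). The Ctss value rested on AD replicate 1, without which it was −0.49 (adjusted p = 0.378). Ctsd (726 and 534 against 404 and 458 CPM, −0.44 ± 0.19) and Ctsb (958 and 676 against 550 and 661 CPM, −0.32 ± 0.21) were lower in both AD_ABR libraries and Ctsh (269 and 281 against 282 and 365 CPM, 0.34 ± 0.18) was higher. Ctsa, Ctsc, Ctsk and Ctsz overlapped between groups. Thus 3 members were wholly lower, against 40.5% of all genes tested, and 2 wholly higher, against 25.6%.

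The cells that supplied each cathepsin's UMIs differed between the groups. For Ctss, macrophage-like cells held 34.1 and 28.7% of all UMIs in AD and 73.6 and 76.8% in AD_ABR, whereas cluster 10 held 39.0 and 35.8% in AD and 3.97 and 4.13% in AD_ABR. Dendritic-like cells held 19.2 and 26.9% in AD and 15.5 and 11.1% in AD_ABR. Cluster 10 was also the largest single holder of Ctsd UMIs among the classes in AD, at 40.2 and 31.4%, against 0.686 and 2.12% in AD_ABR. For Ctsb cluster 10 held 36.6 and 25.5% in AD and 0.613 and 2.09% in AD_ABR. Fibroblast-like cells held 39.7 and 35.3% of Ctsk UMIs in AD and 69.5 and 75.2% in AD_ABR, and 27.8 and 41.3% of Ctsl UMIs in AD and 55.4 and 62.8% in AD_ABR. These shares follow both the number of cells of a class and the level per cell, and they were not tested.

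**Figure D5:**
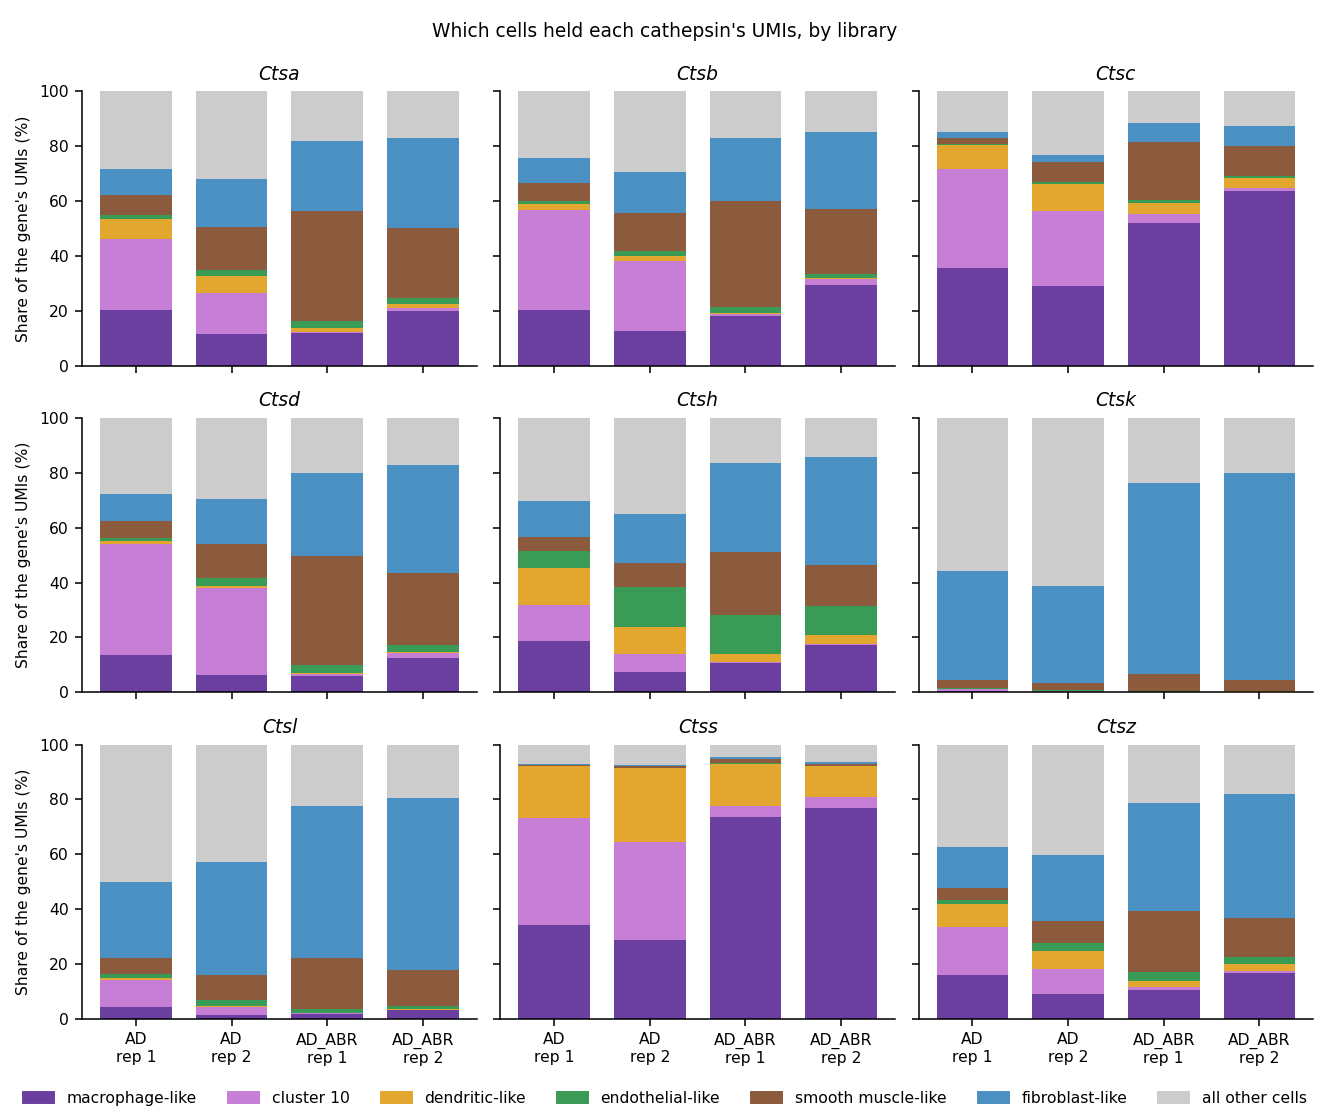
Share (%) of each cathepsin's UMIs held by each class in each library, as stacked bars from 0 to 100. Cluster 10 holds 25.5 to 40.2% of Ctsb and Ctsd UMIs in the AD libraries and at most 2.12% in the AD_ABR libraries, and fibroblast-like cells hold more of Ctsk and Ctsl in AD_ABR.

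Of the other lysosomal lists, 3 genes passed over all kept cells, each lower with paquinimod. Napsa, the gene of napsin A, an aspartic peptidase, fell from 47.8 and 32.8 to 9.67 and 14.1 CPM (−1.65 ± 0.25, adjusted p = 0.0452), 1 of 10 peptidases tested. It was among the 10 leading genes of the dendritic-like cluster 9. Among 8 inhibitors Serpina3g fell from 10.2 and 9.09 to 1.22 and 1.53 CPM (−2.71 ± 0.21, adjusted p = 0.0188), and Ctla2a from 96.9 and 81.8 to 43.3 and 50.3 CPM (−0.83 ± 0.14, adjusted p = 0.0497). Without AD_ABR replicate 1 or AD_ABR replicate 2 all 3 missed the threshold: Napsa at adjusted p = 0.327 and 0.176, Serpina3g at 0.215 and 0.151, and Ctla2a at 0.378 and 0.222. With the replicate block Napsa (0.0874) and Ctla2a (0.0835) missed it. Ctla2a also missed it without doublet removal (0.061) and at a mitochondrial limit of 10% (0.0515).

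The genes most like each cathepsin were found over 36 sums, 9 classes in 4 libraries, among 13010 genes, by Pearson's r of log2 CPM. Sums of 1 library share its depth and sums of 1 class share its cells, so r describes the pattern and has no p. Ctss was nearest to Rgs1 (r = 0.995), Lcp1 (0.994) and Cybb (0.992), and Ctsc to Fyb (0.975), Tbxas1 (0.969) and Gpr65 (0.967). Ctsk was nearest to Clec11a (0.972), Bdh2 (0.959) and Cpxm1 (0.955), and Ctsl to Ergic3 (0.935), Timp2 (0.934) and Laptm4a (0.931). Ctsd was least like any other gene, with Lamp1 (0.841) and Pld3 (0.815) the nearest 2. Ctsb was nearest to Rragc (0.918), Ctsa to Slc37a2 (0.936), Ctsh to Clic1 (0.940) and Ctsz to Ftl1 (0.933). Among the members, Ctsc and Ctss were most alike (r = 0.938), Ctsk and Ctsl stood at 0.815, and Ctsl and Ctss were most opposed (−0.667).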

How the data were processed

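RNA of single cells from the ascending aorta was counted in 2 AD and 2 AD_ABR libraries. The deposited values are UMI counts per gene and barcode, not normalized. Cell Ranger 6.0, STAR and Seurat 4.0 on GRCm38 are named in the submitters' processing notes, whereas Cell Ranger 7.1.0 stands in the matrix files per the file headers. The members and gene lists were chosen with earlier results of these data known.

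Barcodes with at least 200 genes and a mitochondrial share below 20% were kept (1 to 14 and 113 to 463 barcodes removed per library). Doublets were scored with Scrublet in scanpy 1.11.5, and the top 0.8% of barcodes per 1000 recovered, 665 to 934 per library, were removed. The caller's own threshold marked 1.31 to 4.97%. Cells were scaled to 10000 UMIs, 2000 variable genes were chosen without 16 members and list genes, and cells were clustered (30 components, 15 neighbours, Leiden resolution 1). A cluster was named when 3 or more fixed markers each reached 10% of the cells in it, at a mean log2 fold of 1 or more (2 or more if a marker of the list fell short), unless a different list had more genes than its own list among the 10 that led the cluster. Python 3.11.15, leidenalg 0.10.2 and igraph 0.11.9 were used.

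UMIs were summed per library and class with at least 50 cells in each library. AD_ABR was compared with AD by edgeR 4.0.16 (R 4.3.3) with TMM factors, filterByExpr and the quasi-likelihood test, two-sided, over all genes, with Benjamini-Hochberg adjustment and a threshold of 0.05. Every adjusted p is from this test unless DESeq2 1.42.0 is named. Errors of log2 fold changes are standard errors. CPM are printed without TMM scaling. The difference between classes was tested in 1 edgeR model with the library as a block. An exact permutation test of 2 against 2 libraries cannot go below p = 0.333. The script was tested on simulated data.

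All 9 members were looked at in each comparison, but in several classes the text names only some of them. Of each other list, per comparison and direction, the 3 genes with the lowest adjusted p past 0.05 were named. The lists hold 95 genes found in the files. For genes most like a member, Pearson's r of log2(CPM + 5) was used, and 1 such gene is not reported here. Alternatives were DESeq2, no TMM factors, no filter, abundant genes left out, each library left out, a replicate block, no doublet removal, a mitochondrial limit of 10%, clustering with all variable genes and a resolution of 0.5. Single clusters alone, cluster 10 added and neutrophil-like cells left out were chosen after seeing the data. Whether the replicate numbers pair the libraries is not said in the labels. The log2 difference between the replicates of AD correlated over genes with that of AD_ABR by −0.07 to 0.18, depending on the class. Shares of UMIs are counts of a library, and their precision is that of counting only.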

Additional observations from a re-analysis of the deposited data

Results flagged for a closer look

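The effect of paquinimod on Ctsd differed between classes by the test of the difference itself: the log2 fold change in fibroblast-like cells exceeded that in macrophage-like cells by 0.92 ± 0.22 (edgeR, adjusted p = 0.0263). Ctsd was lower in both AD_ABR libraries in macrophage-like cells, and its groups overlapped in fibroblast-like cells. The adjusted p ranged from 0.000131 to 0.557 over the alternatives, and the difference passed in 2 of 6, those without AD replicate 1 or AD replicate 2. It missed the threshold without TMM factors (0.058), without the library block (0.155) and without AD_ABR replicate 1 (0.557) or AD_ABR replicate 2 (0.29).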

How the results depend on the processing

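The calls rest on 2 libraries a group, and where a value moved the cause was not tested. Numbers below are counts of members past the edgeR test in a class, main value first. The 3 higher of fibroblast-like cells became 4 with DESeq2 or no filter. They became 2 without TMM factors, without doublet removal, with all variable genes or at a resolution of 0.5, where Ctsl lost its call. The 2 higher of smooth muscle-like cells became 3 with no filter or the replicate block. In fibroblast-like cells 3 higher became 0 in cluster 1, 3 or 4 alone and 0 to 4 with a library left out, and 0 lower became 1 with DESeq2 and 0 to 1 with a library left out. In smooth muscle-like cells 2 higher became 1 with DESeq2, 0 without TMM factors, and 0 to 3 with a library left out. There, 2 higher and 1 lower both became 0 without doublet removal, with a mitochondrial limit of 10%, with all variable genes, at a resolution of 0.5, and in cluster 0, 2 or 8 alone, and the 1 lower was 0 to 1 with a library left out. In macrophage-like cells 0 lower became 1 with no filter, at a resolution of 0.5 and with cluster 10 added, and both directions were 0 to 1 with a library left out. In dendritic-like cells 0 lower became 1 with no filter, 1 with the replicate block and 0 to 2 with a library left out. In endothelial-like cells 0 higher became 1 with no filter, 3 with the block and 0 to 3 with a library left out, and 0 lower became 1 with no filter, the block or no doublet removal and 0 to 1 with a library left out. In cluster 12, 0 lower became 1 with the block and 0 to 2 with a library left out, and 0 higher 0 to 1. In cluster 6 a left-out library gave 0 to 3 higher and 0 to 2 lower. Over all kept cells 0 higher became 1 with DESeq2 or no filter and 0 to 2 with a library left out, and 0 lower became 1 with DESeq2 and 0 to 3. For the differences of the effect in 5 classes from that in macrophage-like cells, the count is of pairs of a member and a class. There 1 pair past the test became 0 without TMM factors or the library block, and the count also moved with a library left out.

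Added calls came mostly without AD replicate 2, and calls were lost without AD_ABR replicate 2 in fibroblast-like cells and without AD replicate 1 or either AD_ABR library in smooth muscle-like cells.

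Over all genes of the whole-sample sums, edgeR called 208 higher and 496 lower, DESeq2 1634 and 2049, no filter 1221 and 1356, the replicate block 13 and 90, and leaving out 1 library from 0 to 2474 higher and 0 to 3013 lower. Without TMM factors the median log2 fold change of these sums moved from −0.02 to −0.13. In macrophage-like cells edgeR called 18 higher and 18 lower and DESeq2 88 and 134. In smooth muscle-like cells edgeR called 1186 and 1390, DESeq2 809 and 694, and the block 1920 and 1773. In fibroblast-like cells the block called 677 higher and 645 lower against 317 and 285 without it.

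The direction turned for Ctsh in fibroblast-like cluster 3 alone (−0.16) and for Ctss in smooth muscle-like cluster 8 alone (0.26). Among called genes of the other lists it turned for Tcirg1 in that cluster (0.62) and for Acp5 in macrophage-like cells clustered with all variable genes (−0.08). Of the other log2 fold changes of single members, 907 kept their side of the threshold, 51 passed it newly, 45 lost it and 89 without a call moved. Ctsk and Ctsh kept their calls in fibroblast-like cells in 12 of 16 alternatives and Ctsl in 7. In smooth muscle-like cells Ctsh kept its call in 5 of 16, Ctsl in 6 and Ctss in 7, with Ctss between −1.25 and 0.26. Shares of cells with a UMI rise with the number of UMIs kept, and 327 of them moved between 1000 and 2000. Over all kept cells 2 of the 3 called genes of other lists, Napsa and Ctla2a, missed the threshold with the replicate block.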
